A study of Homo sapiens with 9 samples.

Results

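The miR-106b-25 and miR-106a-363 clusters are the paralogs of the miR-17-92 cluster in the human genome. The rows of the count table that carry the names of 9 of their mature miRNAs were taken, out of 1198 rows in all. Of these, 6 come from the miR-106b-25 hairpins and 3 from the miR-106a-363 hairpins. They were chosen by name and not by any measured value, though with earlier results of these data known. The table holds small RNA sequencing of HCT116, an established human colorectal carcinoma line, and of 2 sublines grown from it. HCT-Oxa-c was selected under permanently present and gradually raised oxaliplatin, a platinum drug, and HCT-FU-c under 5-fluorouracil, a pyrimidine analogue, in the same way. The parental HCT116 line carries neither resistance. Each line gave 3 biological replicates of cell culture, so 9 libraries were compared, and each drug is represented by 1 subline. A difference between 2 lines is therefore a difference between these cultures and cannot be told apart from a difference between sublines selected independently.

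The hairpins of miR-106b, miR-93 and miR-25 lie within an intron of MCM7, which encodes a subunit of the replicative DNA helicase, and they are transcribed with it. The miR-106a-363 cluster is transcribed from a separate locus on the X chromosome. A hairpin is cut to a duplex of a 5p and a 3p strand. As a rule the guide strand is loaded into Argonaute and retained, and the passenger strand is degraded, which leaves it at a much lower level. Targets are chosen mainly by the seed, bases 2 to 8 of the mature strand, so miRNAs with the same seed share most of their predicted targets. For these clusters the known targets include CDKN1A, a brake on the cell cycle, and BCL2L11, a promoter of apoptosis. The guide strands are commonly reported at raised levels in colorectal tumours relative to normal mucosa.

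All 9 members were found among the RefSeq mature sequences (GRCh38.p14), and they are shown because their seeds, in capitals, sort them into families. The first family holds 4 members and, from the miR-17-92 cluster, miR-17-5p and miR-20a-5p.
miR-106b-5p: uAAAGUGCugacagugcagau
miR-93-5p: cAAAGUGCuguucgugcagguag
miR-106a-5p: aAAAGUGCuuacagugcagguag
miR-20b-5p: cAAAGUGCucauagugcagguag
miR-17-5p: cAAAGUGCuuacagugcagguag
miR-20a-5p: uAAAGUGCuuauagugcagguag
The second family holds miR-25-3p and miR-363-3p, together with miR-92a-3p, miR-92b-3p and miR-32-5p. Of these, miR-92a-3p arises from both miR-17-92 and miR-106a-363.
miR-25-3p: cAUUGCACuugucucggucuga
miR-363-3p: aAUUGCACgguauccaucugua
miR-92a-3p: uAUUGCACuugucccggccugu
miR-92b-3p: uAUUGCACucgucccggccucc
miR-32-5p: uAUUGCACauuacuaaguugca
The other 3 members are the opposite strands of the miR-106b-25 hairpins, and no other miRNA of the table with a RefSeq sequence has their seeds.
miR-106b-3p: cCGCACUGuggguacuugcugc
miR-93-3p: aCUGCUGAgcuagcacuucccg
miR-25-5p: aGGCGGAGacuugggcaauug

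Some members differ from a miR-17-92 relative by very few bases, which bears on how reads can be assigned. Counted from 1 at the 5′ end and with the miR-17-92 base first, miR-106a-5p differs from miR-17-5p by C1A alone over 23 bases. From miR-20a-5p, miR-20b-5p differs by U1C and U10C. miR-106b-5p differs from miR-17-5p by C1U, U10G and G20A over the 21 bases it has, miR-93-5p differs from it at 4 of 23 bases, and miR-25-3p differs from miR-92a-3p at 4 of 22. Outside its seed miR-363-3p has little in common with miR-92a-3p, from which it differs at 12 of 22 bases.

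On GRCh38 (GENCODE 29) MIR106B is at chr7:100093993-100094074, MIR93 at chr7:100093768-100093847 and MIR25 at chr7:100093560-100093643, all on the minus strand and all in intron 13 of an MCM7 transcript of 15 exons. On the X chromosome MIR106A is at chrX:134170198-134170278, MIR20B at chrX:134169809-134169877 and MIR363 at chrX:134169378-134169452. These 3 are also on the minus strand and lie in exon 2 of a 2-exon transcript of the noncoding gene AC002407.1. The RefSeq hairpins of MIR106B and MIR25 are given with both mature strands in capitals, because the strands of these hairpins are compared further on.
MIR106B: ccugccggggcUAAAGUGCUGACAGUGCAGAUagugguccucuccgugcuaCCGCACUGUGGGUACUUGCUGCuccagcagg
MIR25: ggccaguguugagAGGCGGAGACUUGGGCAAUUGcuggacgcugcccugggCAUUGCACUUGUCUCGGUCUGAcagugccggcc

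The libraries held between 856383 and 2207538 counts, and the library of replicate 3 was the shallowest in each line. Levels are given as CPM, the counts relative to the library total after TMM scaling, and 3 counts correspond to 1.34 to 4.01 CPM. All 8 intestinal epithelial markers, the miR-200 family with miR-192-5p, miR-194-5p and miR-215-5p, were counted, and their sum lay between 19533 and 26051 CPM in every library. This sum came mostly from the miR-200 family, with 6832 to 22679 counts of miR-200c-3p and 5408 to 22601 of miR-200b-3p in a library. The counts of miR-192-5p were 29 to 134, of miR-194-5p 47 to 385 and of miR-215-5p 1 to 18. The sum of 4 blood markers was 1.57 to 16.4 CPM. Markers of mesenchyme and muscle, 5 of 7 of which have a row, summed to 210.2 to 695 CPM, and 3 of them exceeded 3 counts in every library. The liver marker miR-122-5p lay between 0 and 60.1 CPM. The neural list summed to 2466 to 3554 CPM through miR-9-5p, since miR-124-3p had at most 2 counts in a library. Replicates of a line differed by more than sampling noise, with a chi-square per degree of freedom of 9.71 to 385, so all were kept as separate samples.

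The miR-106b-25 cluster was abundant in all 3 lines, and the 3 listed members of miR-106a-363 were close to the limit of detection in all 3. The 6 members of miR-106b-25 had 156182 counts over the 9 libraries and made up 0.933% to 1.74% of a library. The 3 members of miR-106a-363 had 63 counts of 12578549, which is 1 count for every 2479 of miR-106b-25. The 2 guide strands miR-25-3p and miR-93-5p ranked 21 and 30 of 1198 by mean CPM, miR-106b-5p ranked 67, and the passenger strand miR-106b-3p ranked 99. The passenger strands miR-93-3p and miR-25-5p ranked 220 and 222. Ranks of miR-106a-5p, miR-20b-5p and miR-363-3p were 375, 818 and 1001. Mature strands of 21 to 23 bases were compared here, so no length correction was made.

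hsa-miR-25-3p, the guide strand of MIR25, had 7019, 5200.2 and 9280 CPM in replicates 1, 2 and 3 of HCT116. It had 6219, 5914 and 9823 CPM in HCT-Oxa-c and 7480, 4361 and 10144 CPM in HCT-FU-c. The ranges of the 3 lines overlapped, and in each line replicate 3 was the highest. Means were 7166 ± 2044 CPM for HCT116, 7319 ± 2174 CPM for HCT-Oxa-c and 7328 ± 2895 CPM for HCT-FU-c (SD, n = 3).

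hsa-miR-93-5p, the guide strand of MIR93, had 3399, 3226 and 6838 CPM in HCT116, 4303, 3599 and 7512 CPM in HCT-Oxa-c and 3975, 3116 and 7736 CPM in HCT-FU-c. Here the third replicate of every line lay far above the other two, and no line stood apart from another. The means were 4488 ± 2037, 5138 ± 2086 and 4942 ± 2458 CPM (SD, n = 3), in the same order of lines.

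hsa-miR-106b-5p, the guide strand of MIR106B, was the steadiest member. Its level was 727, 729.6 and 930.2 CPM in HCT116, 778, 649 and 951 CPM in HCT-Oxa-c and 926, 829.6 and 989 CPM in HCT-FU-c. The libraries of the 3 lines overlapped, with means of 796 ± 116, 793 ± 151 and 915 ± 80.4 CPM (SD, n = 3). The SD of its log2 CPM over the 9 libraries was 0.21, against 0.42 for miR-25-3p and 0.54 for miR-93-5p.

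The opposite strand of MIR106B, hsa-miR-106b-3p, was a substantial product, with 356, 224 and 162 CPM in HCT116. It had 295, 252 and 183 CPM in HCT-Oxa-c and 305, 296 and 211 CPM in HCT-FU-c. In contrast to the guide strands, it was lowest in replicate 3 of every line, and again the lines overlapped (247 ± 99.2, 243 ± 56.8 and 271 ± 51.9 CPM, SD, n = 3).

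hsa-miR-93-3p, the passenger strand of MIR93, was low and variable. Its counts were 43, 45 and 3 for HCT116, 64, 61 and 16 for HCT-Oxa-c and 82, 64 and 10 for HCT-FU-c, so the third replicate was again the lowest of each line. The corresponding levels averaged 21.8 ± 15.5, 25.8 ± 8.67 and 35.9 ± 25.1 CPM (SD, n = 3), and every pair of lines overlapped.

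hsa-miR-25-5p, the passenger strand of MIR25, had 26.5, 12.9 and 37.4 CPM in HCT116, 32.0, 28.6 and 56.5 CPM in HCT-Oxa-c and 9.83, 20.0 and 21.5 CPM in HCT-FU-c. These levels rest on 18 to 39 counts in HCT116, 55 to 64 in HCT-Oxa-c and 13 to 38 in HCT-FU-c. All 3 HCT-Oxa-c libraries lay above all 3 HCT-FU-c libraries, whereas HCT116 overlapped with both. The means were 25.6 ± 12.3 CPM in HCT116, 39.0 ± 15.2 CPM in HCT-Oxa-c and 17.1 ± 6.33 CPM in HCT-FU-c (SD, n = 3).

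The miR-106a-363 members gave few or no reads. hsa-miR-106a-5p had 6, 2 and 4 counts for HCT116, 10, 4 and 2 for HCT-Oxa-c and 10, 7 and 13 for HCT-FU-c. It exceeded 3 counts in 7 of 9 libraries. The levels, 1.43 to 5.35 CPM in HCT116, 1.79 to 5.25 CPM in HCT-Oxa-c and 3.68 to 15.5 CPM in HCT-FU-c, overlapped between all lines. hsa-miR-20b-5p had 4 counts in total, none above 1 in a library, and was at 0 in 5 libraries. hsa-miR-363-3p had 1 count, in replicate 3 of HCT-FU-c, and was at 0 in the other 8 libraries. A count of 0 allows up to 3 counts. Where these 2 miRNAs were at 0, a level up to the CPM of 3 counts, 1.34 to 4.01 by library, is therefore not excluded. No fold change is given for them.

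Of the 63 counts of the listed miR-106a-363 members 92.1% belonged to miR-106a-5p, the member that differs from miR-17-5p by the first base alone. For every 1000 counts of miR-17-5p there were 2.44 to 14.3 counts of miR-106a-5p in a library, and for every 1000 counts of miR-20a-5p there were 0 to 0.903 counts of miR-20b-5p. How reads that fit several loci were counted is not given in the sources used here, so the values of both members are uncertain. Summing each with its relative left the relative's difference nearly as it was. With so few counts of either member this had to be so, and it does not show how reads were assigned. In HCT-FU-c against HCT116 the sum of miR-106a-5p and miR-17-5p differed by 0.46 on the log2 scale, and miR-17-5p alone also by 0.46. Of the 7 other mature miRNAs assigned to the miR-106a-363 hairpins, miR-18b-5p has a row, with 12 counts in all. miR-19b-3p and miR-92a-3p arise from both miR-17-92 and miR-106a-363, so their reads cannot be assigned to either.

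The first comparison asked whether the members differed in the oxaliplatin-selected subline from the parental line. Of the 9 members 6 passed the filter on low counts, all of them from miR-106b-25. None of the 6 passed the test in HCT-Oxa-c against HCT116 (edgeR quasi-likelihood test, adjusted p 0.875 to 1.00), where 2.45% of 367 tested miRNAs were called. The guide strands were close to the parental level, with log2 fold changes of -0.0056 (95% interval -0.53 to 0.51) for miR-106b-5p, 0.030 (-0.79 to 0.85) for miR-25-3p and 0.20 (-0.82 to 1.21) for miR-93-5p. The passenger strands had -0.023 (-0.78 to 0.74) for miR-106b-3p, 0.22 (-1.39 to 1.83) for miR-93-3p and 0.61 (-0.46 to 1.69) for miR-25-5p. The members had a median of 0.11 with 4 of 6 above 0, beside -0.01 and 48.0% above 0 over all tested miRNAs. No member separated the libraries of the 2 lines, which 16.1% of all tested miRNAs did. In such bulk libraries a smaller share of expressing cells and less of a miRNA per cell cannot be told apart.

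In the second comparison, HCT-FU-c against HCT116, again no member passed (edgeR quasi-likelihood test, adjusted p 0.997 for each). In this comparison 0% of the 367 tested miRNAs were called, 4.09% had an unadjusted p under 0.05, and DESeq2 called 4 miRNAs, no member among them. The values were 0.20 (-0.32 to 0.72) for miR-106b-5p, 0.14 (-0.88 to 1.16) for miR-93-5p and 0.032 (-0.79 to 0.85) for miR-25-3p. For the passenger strands they were 0.13 (-0.63 to 0.89) for miR-106b-3p, 0.69 (-0.92 to 2.30) for miR-93-3p and -0.57 (-1.67 to 0.53) for miR-25-5p. The median was 0.13 with 5 of 6 above 0, beside 0.024 and 51.8% above 0 over all tested miRNAs. No member separated the libraries, which 8.72% of the tested miRNAs did. Both comparisons use the same HCT116 libraries.

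The intervals were wide, and they narrowed when the replicate number was added to the fit as a block. With the block no member passed in either comparison with HCT116, where 14.7% (HCT-Oxa-c) and 5.45% (HCT-FU-c) of all tested miRNAs were called. For miR-106b-5p the 95% interval in HCT-Oxa-c was then -0.32 to 0.29, for miR-25-3p -0.28 to 0.36 and for miR-93-5p -0.08 to 0.50. In HCT-FU-c the intervals were -0.10 to 0.51, -0.32 to 0.31 and -0.17 to 0.41, respectively. These narrower intervals rest on treating libraries of the same replicate number as matched, and the labels name no batch. Without the block, differences of miR-93-5p from -0.82 to 1.21 in HCT-Oxa-c and -0.88 to 1.16 in HCT-FU-c stayed within the 95% interval.

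The third comparison set the 2 sublines against each other, and here miR-25-5p was the member that stood out. Its level in HCT-Oxa-c exceeded that of HCT-FU-c by 1.18 on the log2 scale (SE 0.48, 95% interval 0.09 to 2.27), a 2.27-fold difference. It did not pass without the block (edgeR quasi-likelihood test, adjusted p = 0.240), where 4.36% of all tested miRNAs were called. With the replicate block the difference was 1.10 (SE 0.36, 95% interval 0.36 to 1.84) and passed (edgeR quasi-likelihood test, adjusted p = 0.0265), as did 26.4% of all tested miRNAs. The blocked call depended on single libraries. It was lost in 5 of 9 fits that left out 1 library, namely each HCT-Oxa-c library and replicates 1 and 3 of HCT-FU-c, with adjusted p up to 0.151. The log2 difference stayed between 0.86 and 1.61 in these 9 fits. Scaling by total counts with the block gave 0.91 and an adjusted p of 0.0763 (edgeR). The 3 libraries of each line did not overlap for miR-25-5p, which held for 22.9% of all tested miRNAs, 12.3% in this direction.

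The other 5 tested members did not pass between the sublines with or without the block. Without it the log2 differences of HCT-Oxa-c from HCT-FU-c were -0.21 (-0.73 to 0.31) for miR-106b-5p, 0.056 (-0.96 to 1.07) for miR-93-5p and -0.0018 (-0.82 to 0.82) for miR-25-3p. For miR-106b-3p and miR-93-3p they were -0.15 (-0.91 to 0.61) and -0.48 (-2.07 to 1.12). The members' median was -0.08 with 2 of 6 above 0, beside -0.07 and 44.7% above 0 over all tested miRNAs. Thus miR-25-5p and miR-25-3p, cut from the same hairpin, had log2 differences of 1.18 and -0.0018, and the difference between these 2 values was tested through the strand shares.

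**Figure D1:**
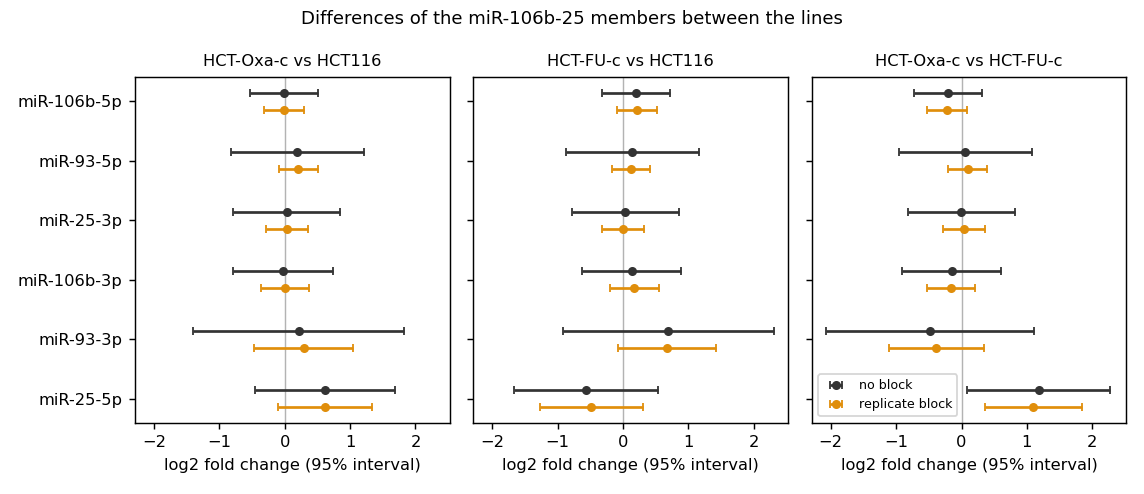
Log2 fold change (horizontal axis) of the 6 tested members in the 3 comparisons of lines, with 95% intervals from the fit without a block (dark) and with the replicate number as a block (orange). The intervals of the guide strands are centred near 0 in each panel, and the interval of miR-25-5p in HCT-Oxa-c against HCT-FU-c (0.36 to 1.84 with the block) lies above 0.

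The share of a hairpin's reads that comes from its 5p strand does not depend on the scaling between libraries. At MIR25 the 5p strand took 0.376%, 0.247% and 0.402% of the reads for HCT116, 0.512%, 0.482% and 0.572% for HCT-Oxa-c and 0.131%, 0.456% and 0.211% for HCT-FU-c. The 3 HCT-Oxa-c libraries were above all libraries of both other lines. The mean of HCT-Oxa-c (0.522% ± 0.0457, SD, n = 3) exceeded that of HCT116 (0.341% ± 0.0830) by 0.180 percentage points and that of HCT-FU-c (0.266% ± 0.169) by 0.256 points. Both had p = 0.1 in a two-sided exact permutation test, the smallest p that 3 against 3 libraries can give, and an adjusted p of 0.45 over the 9 comparisons of 3 hairpins, so neither can pass at 0.05. Of 83 hairpins with both strands tested, the libraries did not overlap in 4.82% for HCT-Oxa-c against HCT116 and in 12.0% for HCT-Oxa-c against HCT-FU-c. The counting intervals of single libraries were wide and cover counting error only. The 95% Wilson interval was 0.377% to 0.615% for replicate 2 of HCT-Oxa-c and 0.278% to 0.580% for replicate 3 of HCT116. For replicate 2 of HCT-FU-c it was 0.332% to 0.625%. The shares of the replicate 2 libraries of the 2 sublines, 0.482% and 0.456%, were thus within counting error of each other.

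At MIR106B the 5p strand took 67.1%, 76.5% and 85.2% for HCT116, 72.5%, 72.0% and 83.9% for HCT-Oxa-c and 75.2%, 73.7% and 82.4% for HCT-FU-c. The lines overlapped, with differences between their means of 0.164 to 0.985 percentage points in size (two-sided exact permutation test, p = 0.7 to 1, adjusted p = 1 for each). The third replicate had the highest share in every line. MIR93 was the most one-sided in favour of its 5p strand, with 98.5% to 99.9% in every library, and its shares overlapped between the lines (two-sided exact permutation test, p = 0.5 to 0.8, adjusted p = 1). Paired by replicate number, the 5p share of MIR93 in HCT-FU-c was below HCT116 in 3 of 3 pairs, with differences of -0.684, -0.0815 and -0.0952 points, which was not tested. A common direction in 3 pairs can arise by chance, and its share over all hairpins was not taken.

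Each of the 6 tested members differed in the same direction between replicate 3 and the other replicates of every line. In all 3 lines replicate 3 was above both other replicates for miR-106b-5p, miR-93-5p, miR-25-3p and miR-25-5p, and below both for miR-106b-3p and miR-93-3p. Over all tested miRNAs the third replicate was above in 31.3% and below in 26.7%, 58.0% together. Against the mean of replicates 1 and 2, miR-93-5p was higher in replicate 3 by 1.05 on the log2 scale in HCT116, by 0.93 in HCT-Oxa-c and by 1.13 in HCT-FU-c. For miR-25-3p these values were 0.60, 0.70 and 0.78, and for miR-106b-5p 0.35, 0.41 and 0.17. For miR-106b-3p they were -0.84, -0.58 and -0.51, and for miR-93-3p -2.94, -0.89 and -2.00. The passenger strand miR-25-5p went with the guides, with 0.93, 0.90 and 0.53. Replicate 3 was also the shallowest library of each line, and the part of depth in these shifts was not tested. The 5p share of MIR106B and of MIR93 was above that of both other replicates in all 3 lines, as it was for 28.9% of the 83 hairpins.

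The strands of miR-106b-25 did not keep to one ratio over the libraries. The SD of the log2 ratio of 2 miRNAs over the 9 libraries, which is small when they move together, was 0.24 for miR-93-5p and miR-25-3p. On this measure miR-25-3p ranked 4 of 366 for miR-93-5p, whose median over all tested miRNAs was 0.80. For miR-106b-5p with miR-25-3p it was 0.32 (rank 48 of 366) and with miR-93-5p 0.40 (rank 79). The miR-17-92 guides miR-17-5p (0.24, rank 16) and miR-20a-5p (0.26, rank 22) were closer to miR-106b-5p than either of these cluster mates. Another guide of that cluster, miR-92a-3p (0.34, rank 54), was less close than miR-25-3p but closer than miR-93-5p. Guide and passenger of one hairpin were less alike, with 0.51 for MIR106B, 0.69 for MIR25 and 1.53 for MIR93, for which miR-93-3p ranked 326 of 366. Counting noise widens this measure at low counts. A library held 3 to 82 counts of miR-93-3p and 13 to 64 of miR-25-5p, and the part of noise was not tested. The miRNAs most like miR-106b-5p were miR-128-3p (0.14) and miR-101-3p (0.15). For miR-93-5p they were miR-584-5p (0.16) and miR-26b-5p (0.21), and for miR-25-3p miR-501-3p (0.21) and miR-1307-3p (0.22). The nearest to miR-106b-3p were miR-378a-3p (0.19) and miR-548d-5p (0.20). Those of miR-93-3p, miR-1910-5p (0.48) and miR-98-3p (0.50), and of miR-25-5p, miR-331-5p (0.44) and miR-455-3p (0.45), were looser. These values describe 9 libraries that share their lines and replicate numbers.

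Within the seed family of miR-17, the members supplied most of the reads. Over the 9 libraries miR-93-5p made up 61.3% of the family's counts (50.4% to 70.7% in a library), miR-20a-5p 17.1%, miR-106b-5p 11.3% and miR-17-5p 10.2%. The X-linked members miR-106a-5p and miR-20b-5p contributed 0.0636% and 0.0044%. The members together took 74.7% ± 1.73 of the family for HCT116, 75.8% ± 3.35 for HCT-Oxa-c and 68.0% ± 5.53 for HCT-FU-c (SD, n = 3). The lowest shares, 65.8% and 63.9%, were those of replicates 1 and 2 of HCT-FU-c, and its replicate 3 had 74.3%, so the libraries overlapped with those of HCT116 (72.7% to 75.8%). Between libraries of the same replicate number, however, the share in HCT-FU-c was below HCT116 in 3 of 3 pairs, by -9.94, -8.89 and -1.47 percentage points for replicates 1, 2 and 3. It was also below HCT-Oxa-c in all 3 pairs, whereas HCT-Oxa-c against HCT116 went both ways (-1.76, 1.03 and 3.95 points). These paired values are descriptions and were not tested, and a common direction in 3 pairs can arise by chance. The sum of the family was 7053 ± 2782 CPM for HCT116, 7753 ± 2547 CPM for HCT-Oxa-c and 8472 ± 2927 CPM for HCT-FU-c (SD, n = 3).

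In the seed family of miR-25 the order was different. miR-92a-3p, which arises from both miR-17-92 and miR-106a-363, made up 64.7% of the counts. miR-25-3p held 27.0% (23.1% to 35.5% in a library), miR-92b-3p 7.92% and miR-32-5p 0.367%. miR-363-3p contributed its single count. The share of miR-25-3p was 31.0% ± 3.91 for HCT116, 26.7% ± 4.68 for HCT-Oxa-c and 27.1% ± 6.96 for HCT-FU-c (SD, n = 3), with overlapping libraries and the highest value in replicate 3 of each line. Paired by replicate number, it was below HCT116 in 3 of 3 pairs in either subline, with differences of -4.59, -4.89 and -3.38 percentage points for HCT-Oxa-c and -5.14, -6.11 and -0.300 points for HCT-FU-c. These differences were not tested, and both sets use the same HCT116 libraries. Here too 3 pairs can share a direction by chance.

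The miR-17-92 cluster itself was the reference for the same seeds. All of its 12 listed mature miRNAs have a row and 10 were tested, of which none was called in any of the 3 comparisons without the block (edgeR quasi-likelihood test). With the block, miR-20a-5p was higher in HCT-FU-c than in HCT116, by 0.66 (edgeR adjusted p = 0.0173), and miR-18a-5p was lower in HCT-Oxa-c than in HCT116, with -0.68 (edgeR adjusted p = 0.00685). Between the sublines 1 of the 10 was then called higher in HCT-Oxa-c and 5 lower, where 14.7% of all tested miRNAs were called higher and 11.7% lower. The one called higher was the passenger strand miR-92a-1-5p, with 1.16 (edgeR adjusted p = 0.0121). Among the 5 lower ones were the guide strands miR-17-5p with -0.65 (edgeR adjusted p = 0.0041) and miR-20a-5p with -0.45 (edgeR adjusted p = 0.0331). Without the block the median of the 10 was -0.07 in HCT-Oxa-c against HCT116, 0.38 in HCT-FU-c against HCT116 and -0.50 between the sublines. For the 6 members of miR-106b-25 the medians were 0.11, 0.13 and -0.08. Whether the 2 clusters differ in these values was not tested.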

How the data were processed

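Small RNA libraries of the parental line and both sublines, 3 per line, were prepared with a NEXTflex Small RNA-Seq v3 kit and sequenced on an Illumina MiSeq. The authors deposited the unscaled read counts of each mature miRNA and also a normalized signal (the counts divided by 1 factor per library), which was not used here. The submitters' processing notes name CASAVA 1.8, Bowtie 1.1.2, DESeq2 and GRCh38.p7. The treatment of reads matching several loci is not given in the sources used here. Each line and replicate number was taken from the sample labels.

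Counts were fitted with edgeR 4.0.16 (R 4.3.3) by the quasi-likelihood F test over all 9 libraries, with line as factor and TMM scaling. filterByExpr (minimum count 10, minimum total 15) kept 367 of 1198 miRNAs, which held at least 99.9% of the counts of each library. The prior count was 0.125, and Benjamini-Hochberg adjusted p below 0.05 was called. Alternatives were RLE and total count scaling, TMM without the most abundant miRNA, DESeq2 1.42.0, other filters, fewer libraries and the replicate number as a block. Shares were compared by exact permutation (scipy 1.17.1). The scripts were tested on simulated counts.

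Deviations from the line means correlated at 0.35 to 0.74 in the 9 pairs of libraries with the same number in the labels and at -0.66 to 0.60 in other pairs. The fit without a block and the permutation tests treated the libraries as unpaired. The replicate number was used only in the block and in the paired differences of shares. Replicate 1 libraries correlated with replicate 2 libraries about as well as with each other, and replicate 3 stood apart. The labels call the replicates biological, and name no batch or date. The biological coefficient of variation was 0.458 without and 0.174 with the block. Members and lists were chosen with earlier results of these data known. Named were all members, the miR-17-92 miRNAs as counts with examples, and for each tested member the 2 miRNAs with the steadiest ratio to it. Hairpin positions are from GENCODE 29 and sequences from RefSeq, which matched 1059 of 1198 rows. MIR93 and MIR20B hairpin sequences were not used here.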

Additional observations from a re-analysis of the deposited data

How the results depend on the processing

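Under other processing choices the 18 log2 fold changes of the members took 321 values, of which 264 kept the sign and 57 did not, 34 of these with a library left out. The largest value of the other sign was 0.40 in size. The only call was miR-25-5p between the sublines with the replicate block, where the number of members called went from 0 to 1, and the block changed no other member's call. With at least 10 counts in every library miR-93-3p was not tested. Scaling by total counts moved the median of all miRNAs from 0.024 to 0.19 in HCT-FU-c against HCT116 and from -0.07 to -0.26 between the sublines. Depth limits the miR-106a-363 members and both low passenger strands most.

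Signs also changed in settings that kept all replicates or replicates 1 and 2. In HCT-Oxa-c against HCT116 miR-106b-5p was at 0.020 with RLE, 0.020 with DESeq2, 0.035 with TMM without the most abundant miRNA, 0.047 without a filter, 0.064 with at least 10 counts in every library and 0.012 with only the 6 libraries compared. miR-106b-3p was at 0.018 with TMM without the most abundant miRNA, 0.031 without a filter, 0.020 with at least 10 counts in every library and 0.0087 with the block. In HCT-FU-c against HCT116 miR-25-3p was at -0.0029 with RLE and with DESeq2, -0.0037 with the block and -0.10 with replicates 1 and 2 only. Between the sublines miR-25-3p was at 0.064 with RLE and with DESeq2, 0.066 with TMM without the most abundant miRNA, 0.017 without a filter, 0.037 with at least 10 counts in every library, 0.042 with only the 6 libraries compared, 0.041 with the block and 0.11 with replicates 1 and 2 only, and miR-93-5p was at -0.072 with total counts. The 5p share of MIR106B differed by 0.411 percentage points between HCT-Oxa-c and HCT116 with replicates 1 and 2 only. The cause was not tested.

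With each library left out in turn, values in HCT-Oxa-c against HCT116 ran from -0.093 to 0.14 for miR-106b-5p, -0.27 to 0.37 for miR-106b-3p, -0.12 to 0.61 for miR-93-5p, -0.26 to 0.62 for miR-93-3p, -0.17 to 0.24 for miR-25-3p and 0.33 to 0.94 for miR-25-5p. In HCT-FU-c against HCT116 they ran from 0.10 to 0.33, -0.094 to 0.48, -0.37 to 0.58, 0.022 to 1.03, -0.32 to 0.31 and -0.94 to -0.21, and between the sublines from -0.30 to -0.05, -0.24 to 0.076, -0.27 to 0.62, -0.75 to 0.22, -0.29 to 0.40 and 0.89 to 1.44, in the same order. For the 5p shares of MIR106B the differences ran from -4.74 to 4.29, -3.75 to 5.27 and -4.86 to 1.67 percentage points in the 3 comparisons, for MIR93 from -0.131 to 0.338, -0.670 to 0.0214 and 0.0294 to 0.720, and for MIR25 from 0.133 to 0.210, -0.170 to -0.0079 and 0.188 to 0.351.

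The number of all miRNAs called was 9, 0 and 16 in the 3 comparisons. It was 23, 4 and 43 with DESeq2, 54, 20 and 97 with the replicate block, and 43, 13 and 67 with replicates 1 and 2 only. Without a filter it was 16 and 1 in the comparisons with HCT116, and with at least 10 counts in every library it was 4, 1 and 9. With a library left out it was 4 to 12, 0 and 6 to 23. For the block with a library left out, chosen after seeing the data, miR-25-5p ran from 0.86 to 1.61 between the sublines and was called in 4 of 9 fits, and RLE with the block, also chosen then, gave 1.18 and an adjusted p of 0.0159 (edgeR).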
